A study of Bos taurus with 14 samples.

Results

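The genes of calcium release and reuptake in muscle were followed in the LD (*M. longissimus dorsi*) muscle of cattle kept at pasture or housed on concentrate. The list held 10 genes: *ATP2A1*, *ATP2A2*, *RYR1*, *CASQ1*, *CASQ2*, *SLN*, *PLN*, *CACNA1S*, *PVALB* and *TRDN*. Every probe set with 1 gene symbol that is on the list was kept, which gave 11 of the 24016 bovine probe sets tested, for 5 of the 10 genes. *RYR1*, *CASQ1*, *CASQ2*, *PVALB* and *TRDN* have no probe set by name in the annotation used and were not analysed here. The 14 animals were Charolais × Limousin crossbred heifers, sampled shortly after slaughter. The 7 outdoor/pasture-fed heifers grazed a sward of ryegrass, meadow grass and white clover, and the 7 indoor/concentrate-fed heifers were housed throughout on a beet pulp and barley concentrate with barley straw. Diet and housing differed together and cannot be told apart. Both systems ran as several management groups that the labels do not give, so every test treats the animals as independent. Each test sets the difference against the spread between animals. If animals of the same management group are alike, its p-value is too small.

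A muscle fibre contracts when the voltage sensor of the surface membrane, which contains the protein of *CACNA1S*, opens the calcium release channel of the sarcoplasmic reticulum, encoded by *RYR1*. It relaxes when calcium is pumped back by SERCA, encoded by *ATP2A1* in fast fibres and by *ATP2A2* in slow fibres and the heart. Phospholamban (*PLN*) and sarcolipin (*SLN*) are small membrane proteins that inhibit these pumps, calsequestrins (*CASQ1*, *CASQ2*) bind the stored calcium, triadin (*TRDN*) anchors them at the release channel, and parvalbumin (*PVALB*) buffers calcium in the cytosol of fast fibres.

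A probe set combines several short probes for 1 transcript, and its values are log2 expression. With an SD (standard deviation) above 0.01, 9623 of the 24016 probe sets are called varying here, and the rest were nearly constant from array to array. The value of indoor/concentrate-fed muscle was subtracted from that of outdoor/pasture-fed muscle, and all 24016 differences were fitted with limma and adjusted by the Benjamini-Hochberg method. Skeletal muscle markers were bright, with *ACTA1* at 14.11 and *CKM* at 13.81 on all arrays. The heart markers *NPPA* and *TNNI3* averaged 5.40 and 6.16, where the lowest value in the table is 4.95. *ACTA1*, *CKM* and *NPPA* did not vary, so their values do not compare animals. The skeletal muscle marker *DES* varied, from 12.79 to 13.30. The array controls overlapped between the groups. The mean of the spiked hybridisation controls was 12.18 to 12.37 in outdoor/pasture-fed and 12.18 to 12.32 in indoor/concentrate-fed arrays (exact permutation p = 0.876). No member passed the test, and that count of 0 is read against the 0.0167% of all probe sets that did (4 of 24016, with 0.0125% higher and 0.00416% lower at pasture). Fitted among the varying probe sets alone, no member passed either, where 0.343% did. The exact permutation test, adjusted over all probe sets, called 0.0% of them. Its smallest possible p is 0.000583, and a probe set at that p had an adjusted permutation p of 0.157. No probe set could therefore pass it, and the 0.0% says nothing about the members.

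The slow-fibre and cardiac pump *ATP2A2* (gene identifier 540568) was higher in outdoor/pasture-fed muscle at each of its 4 probe sets, by 0.09 to 0.52 on the log2 scale, but none passed the adjusted test. The fast-fibre pump *ATP2A1*, the pump inhibitors *PLN* and *SLN* and the voltage sensor gene *CACNA1S* did not pass either. Of the 10 member probe sets that varied, 7 were higher and 3 lower at pasture, with a median difference of 0.12, or 0.05 without indoor/concentrate-fed replicate 3. All the higher ones read *ATP2A2* or *PLN* and all the lower ones *ATP2A1* or *SLN*, so the 10 are not independent. Over all varying probe sets, 47.5% were higher and the median was −0.01. At an unadjusted p under 0.05, 2 of the 10 were higher and 0 lower, which is close to the 19.9% of varying probe sets past that threshold in either direction. Over all probe sets, 11.4% were past it, 5.35% higher and 6.07% lower. The groups overlapped at every member probe set, where 0.371% of all probe sets and 0.811% of the varying ones did not. Since the muscle was sampled whole, fewer fibres of a type and less RNA per fibre cannot be told apart.

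**Figure D1:**
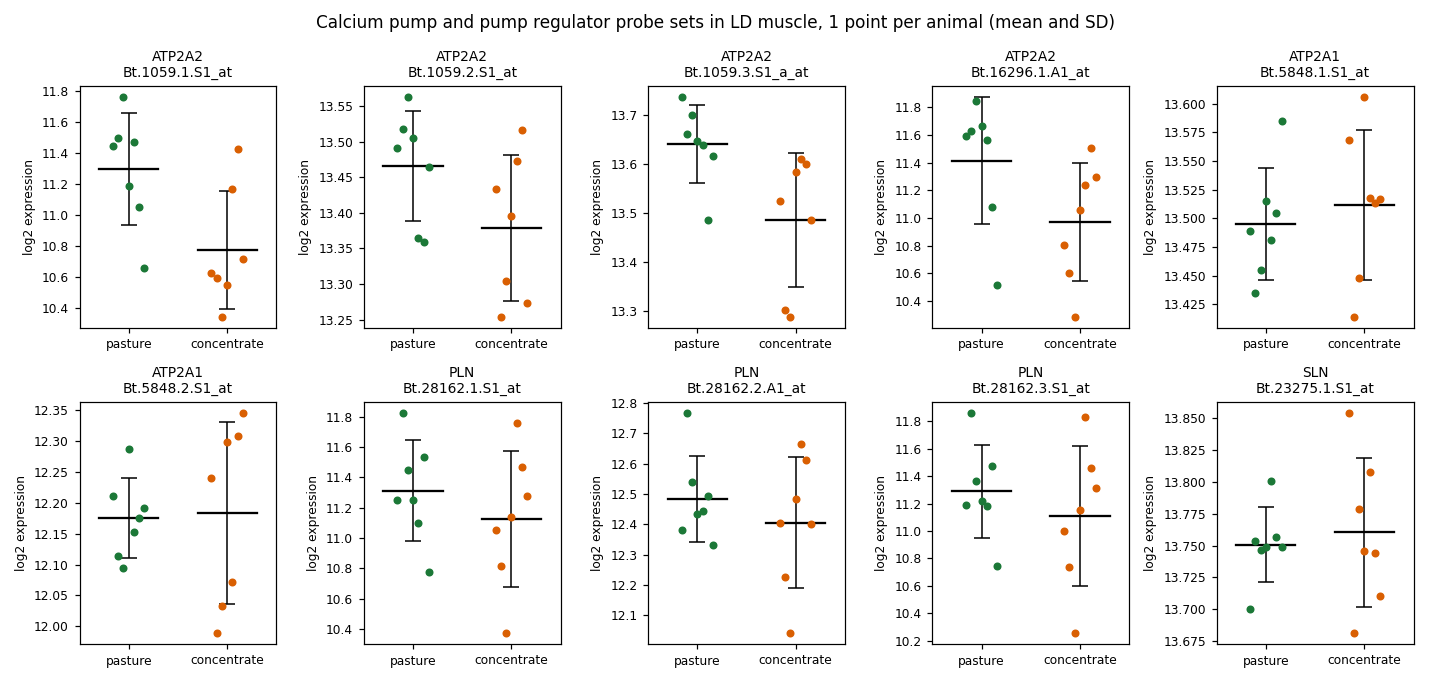
log2 expression (y axes, each with its own range) of the 10 varying member probe sets in 7 outdoor/pasture-fed (left) and 7 indoor/concentrate-fed (right) heifers, 1 point per animal, with the mean (line) and SD (bar). At *ATP2A2* probe set Bt.1059.3.S1_a_at, 6 of 7 outdoor/pasture-fed animals lie above the highest indoor/concentrate-fed animal.

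*ATP2A2* is read by the largest number of probe sets among the members. At Bt.1059.3.S1_a_at, the brightest, expression was 13.48, 13.65 and 13.74 (lowest, median and highest) in the outdoor/pasture-fed animals, against 13.29, 13.52 and 13.61 in the indoor/concentrate-fed animals. The means were 13.64 ± 0.08 and 13.48 ± 0.14 (SD, n = 7 each), in the same order. Only outdoor/pasture-fed replicate 6 fell inside the range of the indoor/concentrate-fed animals, and without it the groups did not overlap. The difference was 0.16 (SE 0.06, 95% interval 0.03 to 0.29), which is a fold of 1.11, with an adjusted p of 0.341 in limma and an exact permutation p of 0.0186.

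Bt.1059.1.S1_at gave the widest separation of means among the member probe sets. Expression was 10.66, 11.44 and 11.76 in the outdoor/pasture-fed animals, against 10.35, 10.63 and 11.43 in the indoor/concentrate-fed animals. All 7 outdoor/pasture-fed animals lay above the indoor/concentrate-fed median and 4 lay above the highest indoor/concentrate-fed animal. The means were 11.30 ± 0.36 in outdoor/pasture-fed and 10.78 ± 0.38 in indoor/concentrate-fed muscle (SD, n = 7 each), a difference of 0.52 (SE 0.20, 95% interval 0.09 to 0.95). The fold was 1.44 (95% interval 1.07 to 1.93). The limma adjusted p was 0.335, or 0.155 in the fit to varying probe sets alone, and the exact permutation p was 0.0268.

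The remaining *ATP2A2* probe sets gave differences of the same sign with intervals that include 0. At Bt.16296.1.A1_at, expression was 10.52, 11.60 and 11.85 in the outdoor/pasture-fed animals, against 10.29, 11.05 and 11.50 in the indoor/concentrate-fed animals. Its difference was 0.45 (SE 0.24, 95% interval −0.07 to 0.96, limma adjusted p = 0.512, exact permutation p = 0.0857). Here 5 of 7 outdoor/pasture-fed animals lay above all indoor/concentrate-fed animals, while outdoor/pasture-fed replicate 7 lay near the bottom of the whole range. At Bt.1059.2.S1_at, expression was 13.36, 13.49 and 13.56 in the outdoor/pasture-fed animals, against 13.25, 13.39 and 13.52 in the indoor/concentrate-fed animals. Its difference was 0.09 (SE 0.05, 95% interval −0.02 to 0.19, limma adjusted p = 0.525, exact permutation p = 0.0950).

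The size of the *ATP2A2* difference depended on the probe set read. The probe sets with means of 11.04 and 11.19 over all arrays gave 0.52 and 0.45, and those with means of 13.42 and 13.56 gave 0.09 and 0.16, where the highest value in the whole table is 14.77. Whether signal near the top of the range bears on this was not tested. Within groups, the 4 probe sets moved together over the 14 animals, with correlations of 0.50 to 0.87 over 6 pairs.

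The fast pump *ATP2A1* (gene identifier 518117) gave differences near 0 at both of its probe sets. At Bt.5848.1.S1_at, expression was 13.43, 13.49 and 13.59 in the outdoor/pasture-fed animals, against 13.41, 13.52 and 13.61 in the indoor/concentrate-fed animals. The difference was −0.02 (SE 0.03, 95% interval −0.08 to 0.05, limma adjusted p = 0.890, exact permutation p = 0.584). At Bt.5848.2.S1_at, expression was 12.09, 12.18 and 12.29 in the outdoor/pasture-fed animals, against 11.99, 12.24 and 12.34 in the indoor/concentrate-fed animals, and the difference was −0.01 (SE 0.06, 95% interval −0.14 to 0.12, limma adjusted p = 0.976). The outdoor/pasture-fed values lay inside the range of the indoor/concentrate-fed values at both probe sets. Bt.5848.1.S1_at averaged 13.50 over all arrays, and whether signal near the top of the range narrows its difference was not tested.

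**Figure D2:**
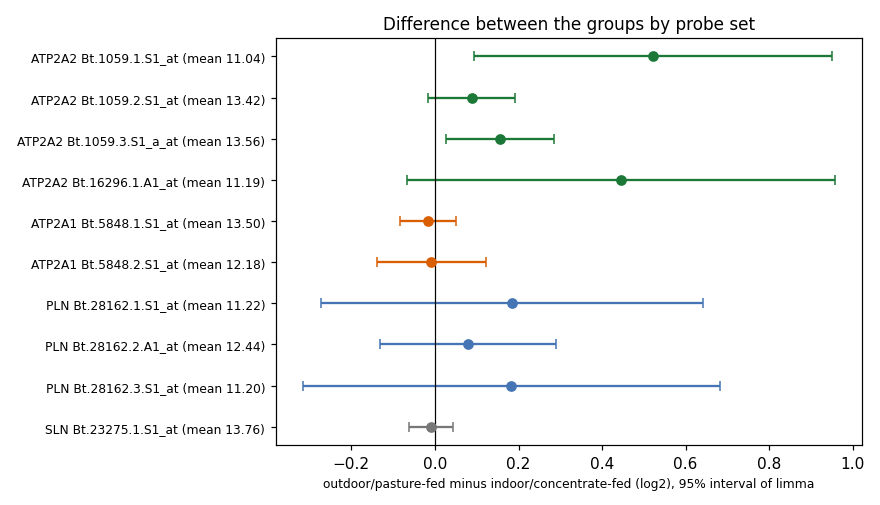
Difference in log2 expression, outdoor/pasture-fed minus indoor/concentrate-fed (x axis), for the 10 varying member probe sets (rows), with the 95% interval from limma and the mean over the 14 arrays in each row label. The intervals of *ATP2A2* Bt.1059.1.S1_at (0.09 to 0.95) and Bt.1059.3.S1_a_at (0.03 to 0.29) exclude 0 before adjustment, and the other 8 include it.

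The pump inhibitors differed by less than their spread between animals. *PLN* (gene identifier 100125240) is read by 3 probe sets, which correlated at 0.94 to 0.99 within groups. At Bt.28162.2.A1_at, the brightest, the means were 12.48 ± 0.14 in outdoor/pasture-fed and 12.40 ± 0.22 in indoor/concentrate-fed muscle (SD, n = 7 each), a difference of 0.08 (SE 0.10, 95% interval −0.13 to 0.29, limma adjusted p = 0.821). At Bt.28162.1.S1_at, expression was 10.78, 11.25 and 11.82 in the outdoor/pasture-fed animals, against 10.37, 11.14 and 11.76 in the indoor/concentrate-fed animals, and the difference was 0.18 (SE 0.21, limma adjusted p = 0.804). At Bt.28162.3.S1_at it was 0.18 (SE 0.23, limma adjusted p = 0.828). *SLN* (gene identifier 100296455) was at 13.70, 13.75 and 13.80 in the outdoor/pasture-fed animals, against 13.68, 13.75 and 13.85 in the indoor/concentrate-fed animals. The *SLN* difference was −0.01 (SE 0.02, 95% interval −0.06 to 0.04, limma adjusted p = 0.927, exact permutation p = 0.709). A change in signal of more than 0.06 in size at this probe set lies outside the interval. Its mean over all arrays was 13.76, and whether signal near the top of the range narrows the *SLN* interval was not tested. *CACNA1S* (gene identifier 100337204) was given as 6.72 on every array in both groups, so its probe set holds no measure of a difference.

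The fast and slow pumps were then set against each other within each animal, as *ATP2A1* minus *ATP2A2* at the brightest probe set of each gene. Only the movement of this quantity between groups is read, since the levels of 2 probe sets cannot be compared. It was −0.25, −0.16 and 0.02 (lowest, median and highest) in the outdoor/pasture-fed animals, against −0.09, 0.03 and 0.16 in the indoor/concentrate-fed animals. All 7 outdoor/pasture-fed animals lay below the indoor/concentrate-fed median and 5 lay below every indoor/concentrate-fed animal, the exceptions being outdoor/pasture-fed replicates 6 and 7. The means were −0.15 ± 0.11 in outdoor/pasture-fed and 0.03 ± 0.09 in indoor/concentrate-fed muscle (SD, n = 7 each). At these probe sets the quantity was lower at pasture by 0.17 on the log2 scale (difference −0.17, SE 0.05, two-sided exact permutation p = 0.00991, where the smallest possible p is 0.000583). Taken alone, the *ATP2A2* probe set differed by 0.16 and the *ATP2A1* probe set by −0.02, so most of it repeats the *ATP2A2* difference. How often other pairs of genes give so small a p was not tested. This was the only pair tested, and its p is not adjusted over the genome. Leaving out each animal in turn gave differences of −0.20 to −0.15 with exact permutation p of 0.00408 to 0.0204.

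The result depended on the probe sets that stand for the pumps. All 8 pairings of an *ATP2A1* with an *ATP2A2* probe set gave a lower value at pasture, with differences of −0.54 to −0.10, and 4 of the 8 had an exact permutation p under 0.05 (range 0.00991 to 0.186). The pairings share probe sets and animals and are not independent. The mean over the 2 *ATP2A1* and 4 *ATP2A2* probe sets was 0.38 ± 0.26 in outdoor/pasture-fed and 0.70 ± 0.20 in indoor/concentrate-fed muscle (SD, n = 7 each), a difference of −0.32 (SE 0.12, exact permutation p = 0.0291). By gene, the *ATP2A2* probe sets differed by 0.09 to 0.52 and the *ATP2A1* probe sets by −0.02 and −0.01.

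**Figure D3:**
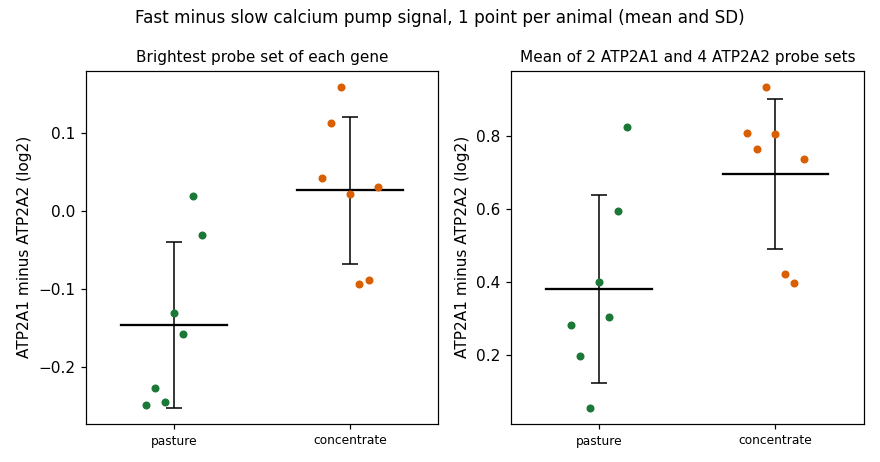
*ATP2A1* minus *ATP2A2* in log2 units (y axes) in 7 outdoor/pasture-fed (left) and 7 indoor/concentrate-fed (right) heifers, 1 point per animal, with the mean (line) and SD (bar), for the brightest probe set of each gene and for the mean of all varying probe sets. With the brightest probe sets, 5 of 7 outdoor/pasture-fed animals lie below all indoor/concentrate-fed animals.

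Animals differed in the slow pump in ways that the groups do not explain. Indoor/concentrate-fed replicate 3 was the lowest of its group at 3 of the 4 *ATP2A2* probe sets, at all 3 *PLN* probe sets and at 8 of the 12 varying probe sets of the slow fibre genes. Its *MYL3*, a light chain of slow fibre myosin, stood at 10.38. The next lowest of the group, indoor/concentrate-fed replicate 2, stood at 11.87, and the group median was 12.53. In the outdoor/pasture-fed group, replicate 7 was the lowest at 2 *ATP2A2* and 3 *PLN* probe sets. Without indoor/concentrate-fed replicate 3, the *ATP2A2* differences were 0.08 to 0.45 and the *PLN* differences 0.02 to 0.06. Without indoor/concentrate-fed replicate 5, the *PLN* differences were 0.12 to 0.30, so their size depended on single animals in either direction.

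Within groups, *ATP2A2* was set against *PLN* and the fibre genes. For *PLN*, over the 14 animals, with each value taken relative to its group mean, Pearson's r was 0.69 (permutation p = 0.0162, adjusted over 5 pairs 0.0810) and Spearman's rank correlation 0.71 (permutation p = 0.00983, adjusted 0.0491). Without the 2 animals farthest from the median of *ATP2A2*, r was 0.26 and Spearman's rank correlation 0.45 over 12 animals (adjusted permutation p = 0.782 and 0.400), so neither passed without those 2. *ATP2A2* and the slow myosin gene *MYH7* gave r of 0.67 (permutation p = 0.0325, adjusted 0.0813), 0.42 without 2 animals, and 0.43 over the means of the probe sets (adjusted permutation p = 0.380). *ATP2A1* with *ATP2A2* gave r of 0.45 (permutation p = 0.151, adjusted 0.252), *ATP2A2* with *SLN* 0.18 (adjusted permutation p = 0.618) and *ATP2A1* with the fast myosin gene *MYH1* 0.37 (adjusted permutation p = 0.269). By probe set, *PLN* with *ATP2A2* gave 0.47 to 0.74 over 12 pairs and *PLN* with *ATP2A1* 0.00 to 0.25 over 6 pairs, as a description.

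**Figure D4:**
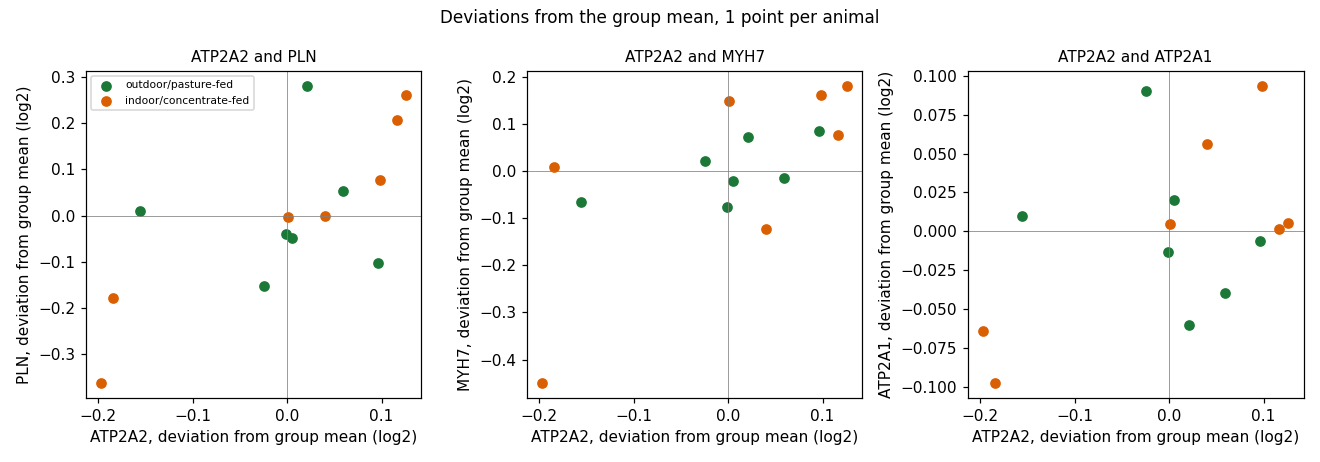
Deviation of each animal from its group mean in log2 expression at the brightest probe set of each gene, for *ATP2A2* (x axes) with *PLN*, *MYH7* and *ATP2A1* (y axes), with outdoor/pasture-fed heifers in green and indoor/concentrate-fed heifers in orange. Pearson's r over the 14 animals was 0.69, 0.67 and 0.45, and 2 indoor/concentrate-fed animals lie lowest on the *ATP2A2* axis.

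Among 5927 varying probe sets with 1 gene symbol, those closest to *ATP2A1* within groups over the 14 animals were of *METTL26* (r = 0.92), *PRDX5*, a peroxiredoxin (0.92), and *TBCE*, a tubulin folding cofactor (0.91). Those closest to *ATP2A2* were of *PSIP1*, a transcriptional coactivator (0.89), *NET1* (0.89), and *PTER*, a phosphotriesterase-related gene (0.88). Of these, *PSIP1* had the largest difference between the groups, 0.27 (SE 0.13, limma adjusted p = 0.456). These genes were picked as the highest of 5927 correlations over 14 animals, and how high such a maximum rises by chance was not tested.

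The wider calcium handling machinery was described through 70 further genes in 4 lists, of which 42 had a probe set by name and 28 varied. None passed the adjusted test, 11 of the 28 were higher and 17 lower at pasture, and 1 of the higher and 3 of the lower genes had an unadjusted p under 0.05, a share below the 19.9% of all varying probe sets. In the list of sarcoplasmic reticulum and triad genes, 3 of 11 were higher and 8 lower, with a median difference of −0.12. *BIN1*, which shapes the transverse tubules, averaged 13.28 ± 0.04 in outdoor/pasture-fed and 13.36 ± 0.03 in indoor/concentrate-fed muscle (SD, n = 7 each), a difference of −0.08 (SE 0.02, limma adjusted p = 0.147). The reticulum chaperone and calcium buffer *CALR* averaged 8.86 ± 0.18 and 9.22 ± 0.17 in the same order, a difference of −0.36 (SE 0.09, limma adjusted p = 0.214, and 0.0883 among the varying probe sets).

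Other pumps, exchangers and channels held 5 varying genes, 3 higher and 2 lower. The release channel *ITPR2* gave 0.18 (SE 0.14), with 0.12 to 0.29 when 1 array was left out. The store-operated channel *ORAI1* gave −0.12 (SE 0.11), with −0.19 to −0.07. The mitochondrial uptake genes *MICU3* (0.02, SE 0.09) and *SMDT1* (−0.03, SE 0.08) lay near 0. In calcium signalling, 4 of 10 varying genes were higher and 6 lower. *NFATC1*, a transcription factor activated by calcineurin, averaged 7.45 ± 0.35 in outdoor/pasture-fed and 8.50 ± 0.81 in indoor/concentrate-fed muscle (SD, n = 7 each). The difference was −1.05 (SE 0.33, limma adjusted p = 0.264), or −1.21 to −0.81 when 1 array was left out. It was smallest in size without indoor/concentrate-fed replicate 2, and the other *NFATC1* probe set did not vary. *NFATC3* gave 0.10 (SE 0.06).

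**Figure D5:**
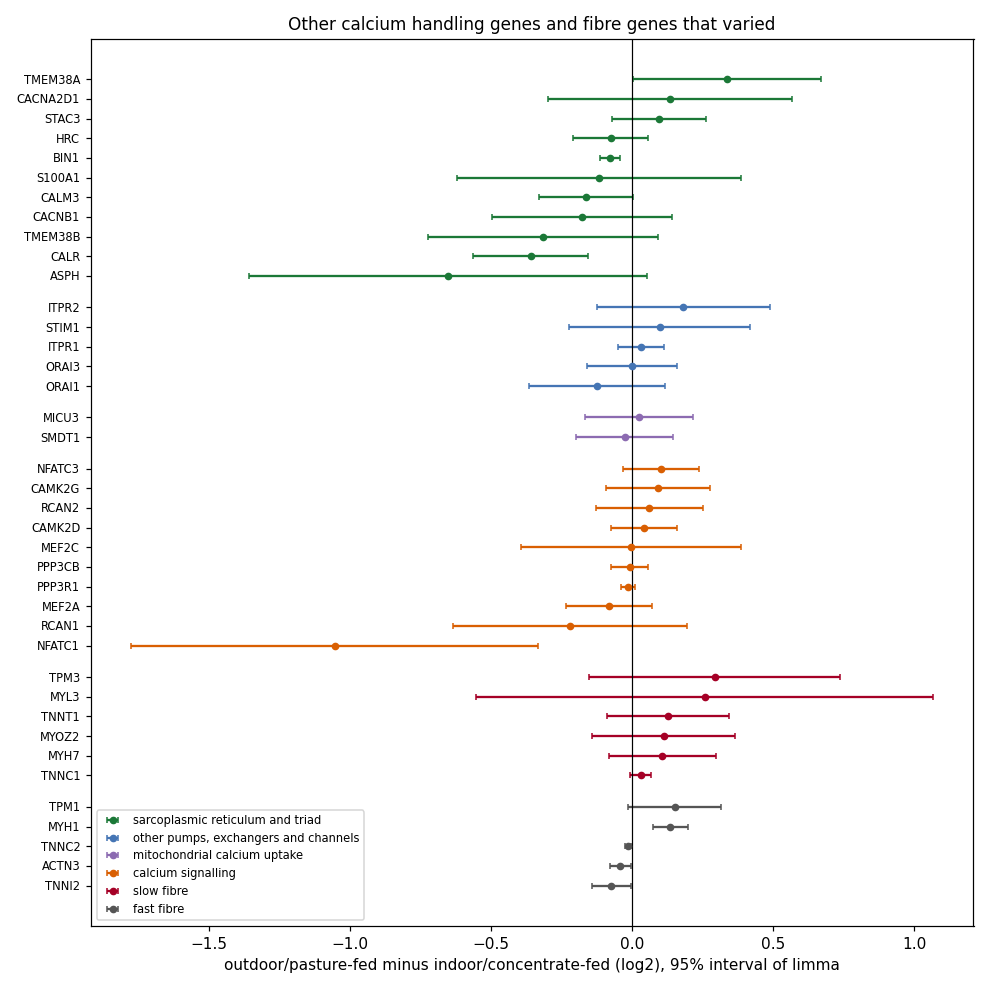
Difference in log2 expression, outdoor/pasture-fed minus indoor/concentrate-fed (x axis), with the 95% interval from limma, for the varying genes of the 4 calcium handling lists and the slow and fast fibre lists (rows), each at its brightest probe set. *NFATC1* (−1.05) lies farthest from 0, and the 6 slow fibre genes lie above 0 with intervals that include it, though *MYL3* gave −0.04 without indoor/concentrate-fed replicate 3.

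Fibre type genes were set beside the pumps because the isoforms mark fibre types. The 6 varying slow fibre genes had values above 0 with all arrays, none at an unadjusted p under 0.05, with a median difference of 0.12. Without indoor/concentrate-fed replicate 3, 5 were higher and 1 lower and the median was 0.03. *MYL3* then gave −0.04 in place of 0.26, and *MYH7* 0.03 in place of 0.11. *TPM3*, slow tropomyosin, gave 0.29 (SE 0.20), or 0.26 without that animal. *TNNC1*, troponin C of slow fibres and heart, gave 0.03 (SE 0.02), or 0.0155 without it. Of 5 varying fast fibre genes at their brightest probe sets, 3 were lower and 2, *TPM1* and *MYH1*, were higher, and the *MYH1* probe sets disagreed. All 3 lower genes and 1 of the higher, *MYH1*, had an unadjusted limma p under 0.05, where 19.9% of all varying probe sets did. None passed the adjusted test. *TNNC2*, troponin C of fast fibres, gave −0.01 (SE 0.0044, limma adjusted p = 0.250). The fast myosin *MYH1* averaged 13.94 ± 0.05 in outdoor/pasture-fed and 13.81 ± 0.06 in indoor/concentrate-fed muscle (SD, n = 7 each), a difference of 0.14 (SE 0.03, limma adjusted p = 0.148) at its brightest probe set. Of its other probe sets, 3 gave −0.15, −0.24 and −0.90, and the others that varied gave 0.0053, 0.13 and 0.20. No direction is therefore given for this gene.

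Markers of other cell types were examined as well. All 4 varying endothelial markers were higher at pasture, each with an unadjusted p under 0.05 (3 of the 4 without indoor/concentrate-fed replicate 3), and the list mean was 9.47 to 9.87 in outdoor/pasture-fed and 8.86 to 9.42 in indoor/concentrate-fed animals. *PECAM1*, an adhesion molecule of endothelial cells, was higher by 0.54 with no overlap, and none of the 4 passed the adjusted test in limma. *ATP2A2* is also expressed outside muscle fibres, and the part of endothelial RNA in its difference was not tested. The 5 varying adipocyte markers all had lower means at pasture, with a median difference of −0.22 and none at an unadjusted p under 0.05. At each of them, indoor/concentrate-fed replicate 1 was the highest of its group. By group median, *CIDEC* (7.46 against 7.41) and *LEP* (5.71 against 5.66) were higher at pasture, and *ADIPOQ*, *FABP4* and *CIDEA* were lower. The 5 leukocyte markers all had higher means at pasture, with a median difference of 0.10 and likewise none at an unadjusted p under 0.05. By group median, *PTPRC* was lower at pasture (7.72 against 7.78). The varying fibroblast markers (3 higher, 2 lower) and smooth muscle markers (2 higher, 2 lower) went in both directions.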

How the data were processed

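LD muscle RNA of 14 heifers, 7 from each system, was hybridised to Affymetrix GeneChip Bovine Genome Arrays, 1 per animal. The deposited log2 values were made by the authors with FARMS (qFarms function), which includes quantile normalisation, and were used without further scaling. Their filter for informative probe sets needs probe-level data and was not repeated. After 112 control probe sets were left out, 24016 were fitted with limma 3.58.1 in R 4.3.3 (prior degrees of freedom 0.214, and 2.02 for the varying probe sets alone), with a Benjamini-Hochberg threshold of 0.05. Exact permutation tests enumerated all 3432 assignments of the arrays, and correlations used 100000 shuffles within groups (Python 3.11.15, scipy 1.17.1). The script was tested on simulated data. Precision is limited by how many arrays there are.

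Of the probe sets, 13292 have 1 gene symbol in the annotation, 86 several and 10638 none, and 13263 gene identifiers matched. All members are named. In each further list, up to 6 genes past the threshold are named, and otherwise the 2 with the smallest p. For each pump gene, the 3 most alike genes are named. A list gene stands at the probe set with the highest mean. *MYL3*, *MYH7*, *TPM1* and the endothelial and other markers were named after their values were seen. Members and lists were chosen with earlier results of these data known. Alternatives were robust and trended priors, a block by replicate number, filters on the mean and on the SD, renewed quantile normalisation, median centring, array weights, the hybridisation controls as a covariate, leaving out each array, and, chosen after seeing the data, each pairing of pump probe sets and the counts of the lists without indoor/concentrate-fed replicate 3.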

Additional observations from a re-analysis of the deposited data

Results flagged for a closer look

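The troponin C gene of slow fibres, *TNNC1*, stood apart in indoor/concentrate-fed replicate 3, at 14.21, where the next lowest animal of its group was at 14.30. The gap was 0.635 of the range of the group, above Dixon's critical value for 7 animals. Of 46 groups of values examined this was the only one. Chance flags about 1 group in 20, so this flag alone is no more than chance would give. The same animal was the lowest of its group at 3 of 4 *ATP2A2* and at all 3 *PLN* probe sets.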

How the results depend on the processing

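No member probe set and no other calcium handling gene passed the adjusted test under any of the 9 settings with all arrays or the 14 with an array left out. Of 230 values of member probe sets under these settings, 222 kept their direction and their side of the threshold and 8 changed sign, all of *ATP2A1* Bt.5848.2.S1_at or *SLN*. The *ATP2A1* value was 0.0068 after renewed quantile normalisation and −0.0408 to 0.0184 with an array left out, and the *SLN* value −0.0228 to 0.0060. *SMDT1* was 0.0108 with array weights and −0.0599 to 0.0393 with an array left out, *MICU3* −0.0241 to 0.0721, and *TNNC2* 0.0 after renewed quantile normalisation. The cause of these sign changes was not tested. The count of all probe sets past the threshold, 4, was 17 with array weights, 7 with median centring, 1 with the hybridisation controls as a covariate, 33 among the varying probe sets, 7 without the probe sets of lowest mean, and 1 to 8 with an array left out. The count of member probe sets with no overlap was 0 to 1 with an array left out, 1 only without outdoor/pasture-fed replicate 6. *ATP2A1* minus *ATP2A2* was no longer past 0.05 with Bt.1059.2.S1_at (−0.1049, exact permutation p = 0.0565, and −0.0964, p = 0.186) or Bt.16296.1.A1_at (−0.4619, p = 0.0828, and −0.4535, p = 0.0676) as the *ATP2A2* probe set. The correlation of *ATP2A2* with *PLN* was 0.7653 over the means of the probe sets (adjusted permutation p = 0.0155). Without the 2 farthest arrays, *ATP2A2* with *SLN* was −0.1429 and *ATP2A1* with *MYH1* −0.0622.

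The replicate numbers did not pair the animals, since animals of the same number correlated in their deviations at −0.18 to 0.24, with 2 of 7 above 0.1 and 2 outdoor/pasture-fed arrays closest to their own number. With the replicate block, 2 probe sets of all and 0 members passed, and *ATP2A1* minus *ATP2A2* was −0.1728 with an exact permutation p of 0.0625 by sign flips. *CASQ1* minus *CASQ2* and the correlations with *CASQ1*, *CASQ2* or *PVALB* were not run, since these genes have no probe set by name in the annotation used.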
